A study of Homo sapiens with 60 samples.

Results

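Ribosome biogenesis factors are the proteins that make ribosomal RNA and fold, cut, modify and pack it into ribosomal subunits. The 40 genes described here are rows of the deposited gene table, which holds 29744 rows in all. Their symbols stand on a list of nucleolar and pre-rRNA processing genes, which was chosen with earlier results of these data known. All 40 also lay among the 11298 genes that passed the filter on low counts. They were followed in spheroids of HCT116, an established human colorectal cancer line. There were 12 groups of 5 libraries, formed by 6 treatments in each of 2 media. Medium 2 and Medium 1 are the names in the labels, and the sources used here do not say whether either of them held fewer nutrients. The sample characteristics give the same untreated, nutrient-rich entry for every sample, although the titles name media and exposures. According to the design text, RNA was taken at once or after 3 h of nutrient deprivation. In each medium the exposures lasted from day 1 to day 8 and were 1 µM butyrate, 0.1 µM hemin, 1 µM kynurenine, 1 µM kynurenic acid, hemin plus kynurenine, or none (untreated). Every group was grown from the same cell line in high-glucose medium with 10% serum. The labels mark the 5 samples of a group as biological replicates without saying whether they came from separate cultures, so the p-values rest on the spread among them, which may be technical.

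Ribosome assembly starts in the nucleolus, where RNA polymerase I transcribes a long precursor RNA from the ribosomal DNA. Small nucleolar ribonucleoproteins (snoRNPs) of the box C/D and box H/ACA classes guide methylation and pseudouridylation of this precursor. A large particle called the small subunit processome cuts and folds the part that becomes the small subunit, while other helicases, GTPases and scaffold proteins assemble the large subunit. The pathway takes much of the energy of a growing cell, is repressed when nutrients or mTOR activity fall, and is driven by the transcription factor MYC, which is often elevated in colorectal cancer.

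The libraries held 1346135 to 3083231 counts (median 1901981), which limits the precision of the rarer members. CPM of single genes are counts relative to the scaled total of the library. Sums over markers, and over RNAs retained in the nucleus, are relative to the unscaled total. Markers of colon epithelium summed to between 1200 and 1919 CPM in every library. Fibroblast markers summed to at most 14.5 CPM, endothelial markers to at most 2.23 CPM and immune markers to at most 5.06 CPM, and COL1A2, COL3A1, LUM and CD3E were at 0 in all libraries. The libraries of butyrate in Medium 1 in well B2 and of kynurenine in Medium 2 in well A7 were taken as standing apart from their groups. Results were recomputed without both, which are called below the libraries that stood apart. No measure of their distance is given here. A check of single members, given at the end, flagged B2 but not A7. It also flagged the kynurenic acid library of Medium 2 in well G7, which stayed in. Medium 2 lay in wells G4 to D8 and Medium 1 in wells A1 to F4. Plate column 4 alone held both media, with no treatment in common, so no treatment compares the media within a plate column. With plate column as a factor, an alternative added after the values were seen, the medium difference could be estimated with butyrate and in untreated spheroids. For the other treatments and the average, medium and plate column cannot be told apart.

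The promoters of some members held a sequence feature that the list did not use. RefSeq promoter windows (GRCh38.p14, 250 bases before to 50 bases after the transcript start) were at hand for 33 of 40 members, and not for RRP1B, NOLC1, RRP12, DDX18, NOP58, RRS1 and BOP1. The palindrome CACGTG, which reads the same on both strands and is the canonical E-box bound by MYC with its partner MAX, occurred in a window of 14 of these 33 members (42.4%). It occurred in 10.5% of the 15841 genes of the table with a promoter entry and in 7.26% of all 35116 windows. Neither of these sets was limited to genes that passed the filter on low counts, nor matched to the members in base composition. Such a match is a description of letters and not a bound site. Shown here are the promoters of members on which later results turn, 3 with the motif (UTP20, lower in Medium 2; FBL, higher in Medium 2; GNL2, one of a set that varied together between libraries) and 2 without it (UTP15, the member with the highest log2 fold change between media, and NOP56, one of the most lowered). Capitals mark CACGTG, and each line runs 5′ to 3′ on the strand of the gene. The UTP20 window is chr12:101279855-101280154 on the plus strand, that of FBL chr19:39846330-39846629 on the minus strand, that of GNL2 chr1:37595888-37596187 on the minus strand, that of UTP15 chr5:73565493-73565792 on the plus strand and that of NOP56 chr20:2652382-2652681 on the plus strand.
UTP20: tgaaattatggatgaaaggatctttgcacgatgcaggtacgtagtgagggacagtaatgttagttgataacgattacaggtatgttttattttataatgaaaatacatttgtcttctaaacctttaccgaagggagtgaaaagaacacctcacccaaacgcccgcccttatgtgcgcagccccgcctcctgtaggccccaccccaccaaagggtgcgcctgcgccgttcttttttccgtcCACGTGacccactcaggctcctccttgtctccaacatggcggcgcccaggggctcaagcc
FBL: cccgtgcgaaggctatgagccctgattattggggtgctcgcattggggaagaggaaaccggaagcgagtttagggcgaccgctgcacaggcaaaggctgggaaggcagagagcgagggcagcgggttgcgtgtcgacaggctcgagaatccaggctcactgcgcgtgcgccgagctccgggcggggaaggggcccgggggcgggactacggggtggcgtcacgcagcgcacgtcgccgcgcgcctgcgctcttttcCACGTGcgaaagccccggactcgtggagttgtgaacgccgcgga
GNL2: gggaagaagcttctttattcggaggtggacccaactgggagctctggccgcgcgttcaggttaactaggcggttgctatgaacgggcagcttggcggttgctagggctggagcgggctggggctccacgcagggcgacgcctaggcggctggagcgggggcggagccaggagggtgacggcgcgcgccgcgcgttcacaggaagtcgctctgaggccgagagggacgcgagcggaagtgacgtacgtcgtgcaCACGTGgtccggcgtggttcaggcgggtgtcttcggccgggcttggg
UTP15: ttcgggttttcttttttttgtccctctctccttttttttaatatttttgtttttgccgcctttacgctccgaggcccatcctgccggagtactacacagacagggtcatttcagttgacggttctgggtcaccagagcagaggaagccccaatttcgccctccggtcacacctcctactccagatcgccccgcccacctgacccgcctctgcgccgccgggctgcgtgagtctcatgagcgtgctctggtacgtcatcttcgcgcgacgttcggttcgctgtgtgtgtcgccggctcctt
NOP56: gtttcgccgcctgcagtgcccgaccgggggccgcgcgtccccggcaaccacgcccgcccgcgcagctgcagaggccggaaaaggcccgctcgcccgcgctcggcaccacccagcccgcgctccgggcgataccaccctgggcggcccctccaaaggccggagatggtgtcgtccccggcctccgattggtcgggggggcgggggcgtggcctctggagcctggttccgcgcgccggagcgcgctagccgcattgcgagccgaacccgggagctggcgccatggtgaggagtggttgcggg
In the UTP20 promoter the motif begins 10 bases before the transcript start. In those of GNL2 and FBL it begins at positions 4 and 7, with the start base counted as the first.

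The members spanned a wide range of transcript levels. In these 3'-end libraries a count stands for a transcript and does not grow with its length, so CPM can be compared between genes. Averaged over 60 libraries, NPM1, a nucleolar scaffold and chaperone, was the most abundant at 1978 CPM, followed by NCL (nucleolin) at 1133 CPM, the RNA helicase DDX21 at 914 CPM and the box C/D methyltransferase FBL (fibrillarin) at 683 CPM. At the other end, POLR1A, the largest subunit of RNA polymerase I, averaged 8.32 CPM and the large subunit factor WDR74 19.5 CPM. The 40 members together took between 0.775% and 1.13% of the counts of a library.

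The main difference among the groups was between the media, and the members split in direction rather than moving together. Averaged over the 6 treatments, with 30 libraries a medium, 9 of 40 members were higher and 11 lower in Medium 2, and 20 did not pass an adjusted p of 0.05. Adjusted p-values of single genes come from the quasi-likelihood F-test of edgeR with the Benjamini-Hochberg correction taken over the 11298 genes. In this contrast 46.1% of all tested genes passed, 22.8% higher and 23.3% lower, so the share of members that passed lay near that of all genes. The median log2 fold change of the members was -0.04, against 0.00 over all tested genes. Marker lists moved with this contrast too. Of 7 tested markers of colon epithelium 3 were higher and 2 lower in Medium 2, and their sum over all 10 ran from 1200 to 1543 CPM in Medium 2 and from 1282 to 1919 CPM in Medium 1. COL1A1, the one fibroblast marker that passed the filter, averaged 4.05 CPM in Medium 2 and 9.01 CPM in Medium 1 (log2 fold change -1.14, adjusted p = 3.55e-08), and the 7 fibroblast markers summed to between 0 and 9.26 CPM in Medium 2 and between 5.57 and 14.5 CPM in Medium 1. The part of these markers in the member results was not tested. In bulk RNA, less of a transcript per cell and fewer cells that hold it cannot be told apart.

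**Figure D1:**
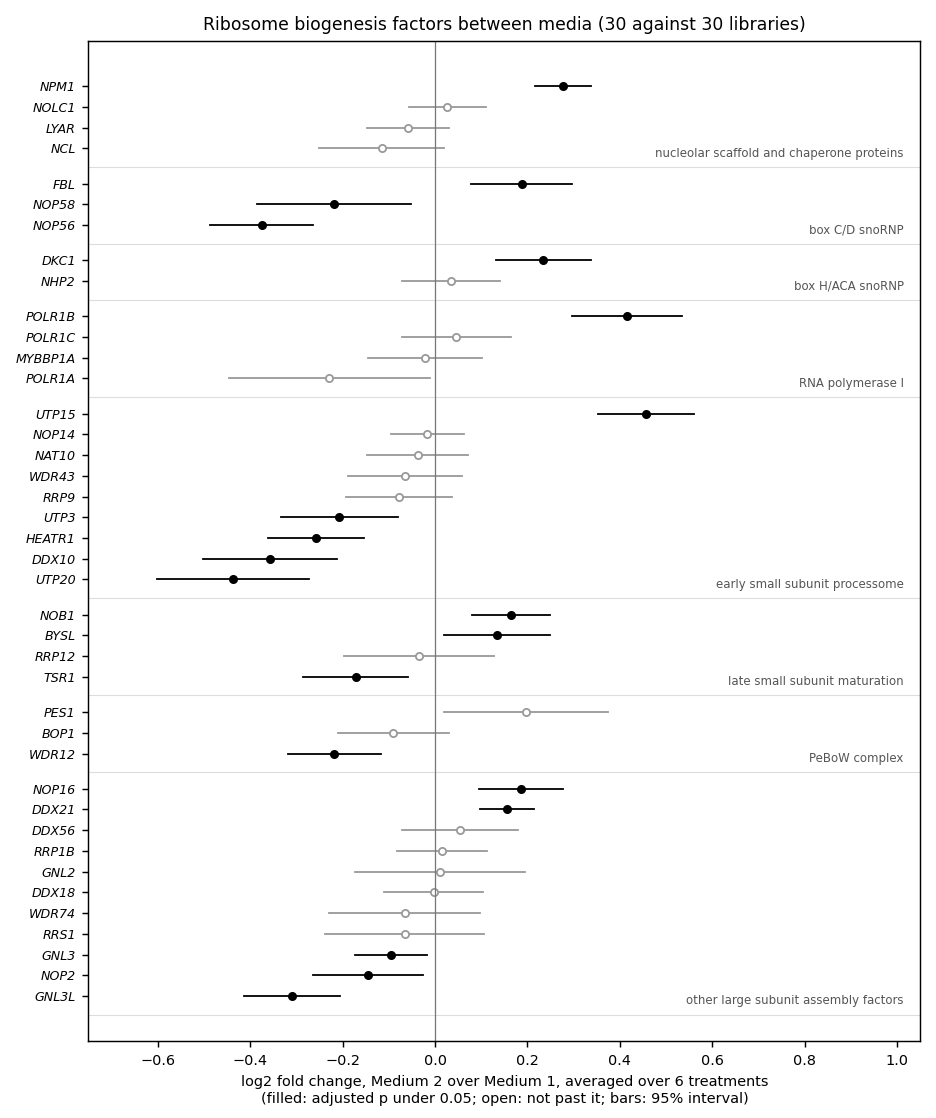
Log2 fold change of each member in Medium 2 over Medium 1, averaged over 6 treatments (30 against 30 libraries), with 95% intervals, grouped by role. Filled points passed an adjusted p of 0.05; UTP15 lies farthest to the right at 0.46 and UTP20 farthest to the left at -0.44, and most roles hold members on both sides of 0.

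Among nucleolar scaffold proteins, NPM1 was higher in Medium 2. NPM1 (chromosome 5, 171387116 to 171410900, whole gene span in GRCh38.p14) had a lowest, median and highest value of 1757, 2124 and 2731 CPM in the 30 Medium 2 libraries, against 1603, 1788 and 1970 CPM in the 30 Medium 1 libraries. Its log2 fold change was 0.28 (SE 0.03, adjusted p = 2.0e-11). The Medium 2 and Medium 1 groups did not overlap in 5 of 6 treatments, kynurenine being the exception. GENCODE release 29 names 45 pseudogenes after NPM1, so its count is uncertain where reads match several copies. The other 3 members of this role did not pass, with log2 fold changes of -0.12 for NCL (95% interval -0.25 to 0.02), -0.06 for LYAR and 0.03 for NOLC1, which escorts snoRNPs.

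The 3 box C/D proteins, which sit together on the same snoRNPs, did not share a direction. NOP56 (chromosome 20, 2652632 to 2658393), a core protein of these particles, ran from 152 to 298 CPM with a median of 204 in Medium 2, and from 178 to 339 CPM with a median of 270 in Medium 1. Its log2 fold change was -0.38 (SE 0.06, adjusted p = 1.02e-07), and the mean was lower in Medium 2 in 6 of 6 treatments. The log2 fold change of its partner NOP58 was -0.22 (SE 0.08, adjusted p = 0.0265). That call was lost without the hemin library of Medium 1 in well C2 (adjusted p = 0.0506) and without both libraries that stood apart (adjusted p = 0.0566). FBL, the methyltransferase of the same particle, was higher, averaging 726 CPM in Medium 2 and 640 CPM in Medium 1 (log2 fold change 0.19, SE 0.05, adjusted p = 0.00373). In the box H/ACA class, the pseudouridine synthase DKC1 (dyskerin) was higher, averaging 526 CPM in Medium 2 and 449 CPM in Medium 1 (log2 fold change 0.23, SE 0.05, adjusted p = 0.000136). Its partner NHP2 had 0.03 (95% interval -0.07 to 0.14) and did not pass.

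Of the 4 genes of RNA polymerase I and its regulation, POLR1B passed, the second largest subunit of the enzyme (chromosome 2, 112542036 to 112579818). It ran from 102 to 183 CPM with a median of 127 in Medium 2, and from 61.6 to 136 CPM with a median of 96.9 in Medium 1. The log2 fold change was 0.42 (SE 0.06, adjusted p = 3.98e-08), with a higher mean in Medium 2 in 6 of 6 treatments. POLR1A, which with POLR1B forms the catalytic core, had -0.23 (95% interval -0.45 to -0.01, adjusted p = 0.0778) at a low level of 7.66 CPM in Medium 2 and 8.99 CPM in Medium 1. POLR1C, a subunit shared with RNA polymerase III, had 0.05, and the nucleolar regulator MYBBP1A had -0.02.

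In the early small subunit processome, 1 of 9 members was higher in Medium 2, 4 were lower and 4 did not pass. UTP15 (chromosome 5, 73565741 to 73583380), a subunit of the subcomplex that binds the start of the precursor, had 52.2, 76.8 and 95.9 CPM as lowest, median and highest value in Medium 2, against 41, 56.8 and 75.2 CPM in Medium 1. Its log2 fold change of 0.46 (SE 0.05, adjusted p = 7.96e-11) was the highest of the 40, and its groups did not overlap in 4 of 6 treatments. UTP20 (chromosome 12, 101280105 to 101386618), a very large scaffold of the same particle, had 11.3, 32.1 and 48.2 CPM in Medium 2, against 27.6, 44.2 and 62.9 CPM in Medium 1. With -0.44 (SE 0.08, adjusted p = 1.18e-05) it was the most lowered member. Lower as well were the RNA helicase DDX10 with -0.36 (SE 0.07, adjusted p = 4.07e-05), the scaffold HEATR1 with -0.26 (SE 0.05, adjusted p = 3.75e-05) and UTP3 with -0.21 (SE 0.06, adjusted p = 0.00604). UTP20, DDX10 and HEATR1 had lower means in Medium 2 in 6 of 6 treatments. The 4 that did not pass were NOP14 (-0.02), the RNA acetyltransferase NAT10 (-0.04), WDR43 (-0.07) and RRP9 (-0.08), which binds the U3 snoRNA.

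Factors that finish the small subunit also split. NOB1, the nuclease that makes the last cut of small subunit RNA, was higher with 0.16 (SE 0.04, adjusted p = 0.00102), and BYSL was higher with 0.13 (SE 0.06, adjusted p = 0.0494). TSR1, which resembles a GTPase and holds the late particle inactive, was lower with -0.17 (SE 0.06, adjusted p = 0.0104), and the nuclear export factor RRP12 had -0.04 and did not pass. The BYSL call rested on a narrow margin, as it was lost in 36 of 60 fits that each left out a library (adjusted p up to 0.0871).

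Large subunit factors went both ways. In the PeBoW complex, which processes the large subunit RNA, WDR12 was lower with -0.22 (SE 0.05, adjusted p = 0.000293), while its partners PES1 (0.20, adjusted p = 0.0634) and BOP1 (-0.09, adjusted p = 0.218) did not pass. Of the other 11, DDX21 was higher with 963 against 865 CPM on average (0.16, SE 0.03, adjusted p = 1.04e-05), as was NOP16 (0.19, SE 0.05, adjusted p = 0.000615). GNL3L (chromosome X, 54530219 to 54645854), a nucleolar GTPase, ran from 49.4 to 82.7 CPM with a median of 64.3 in Medium 2, and from 55.4 to 96.4 CPM with a median of 80.7 in Medium 1. Its log2 fold change was -0.31 (SE 0.05, adjusted p = 1.57e-06), and its mean was lower in Medium 2 in 6 of 6 treatments. The RNA methyltransferase NOP2 (-0.15, adjusted p = 0.0406) and nucleostemin GNL3 (-0.09, adjusted p = 0.0418) were lower by small amounts. Those calls were lost in 25 and 23 of 60 fits without a library, with adjusted p from 0.0504 to 0.0719 for NOP2 and from 0.0506 to 0.0780 for GNL3. The remaining 6, the GTPase GNL2, the helicases DDX18 and DDX56, WDR74, RRP1B and RRS1, lay between -0.07 and 0.05.

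**Figure D2:**
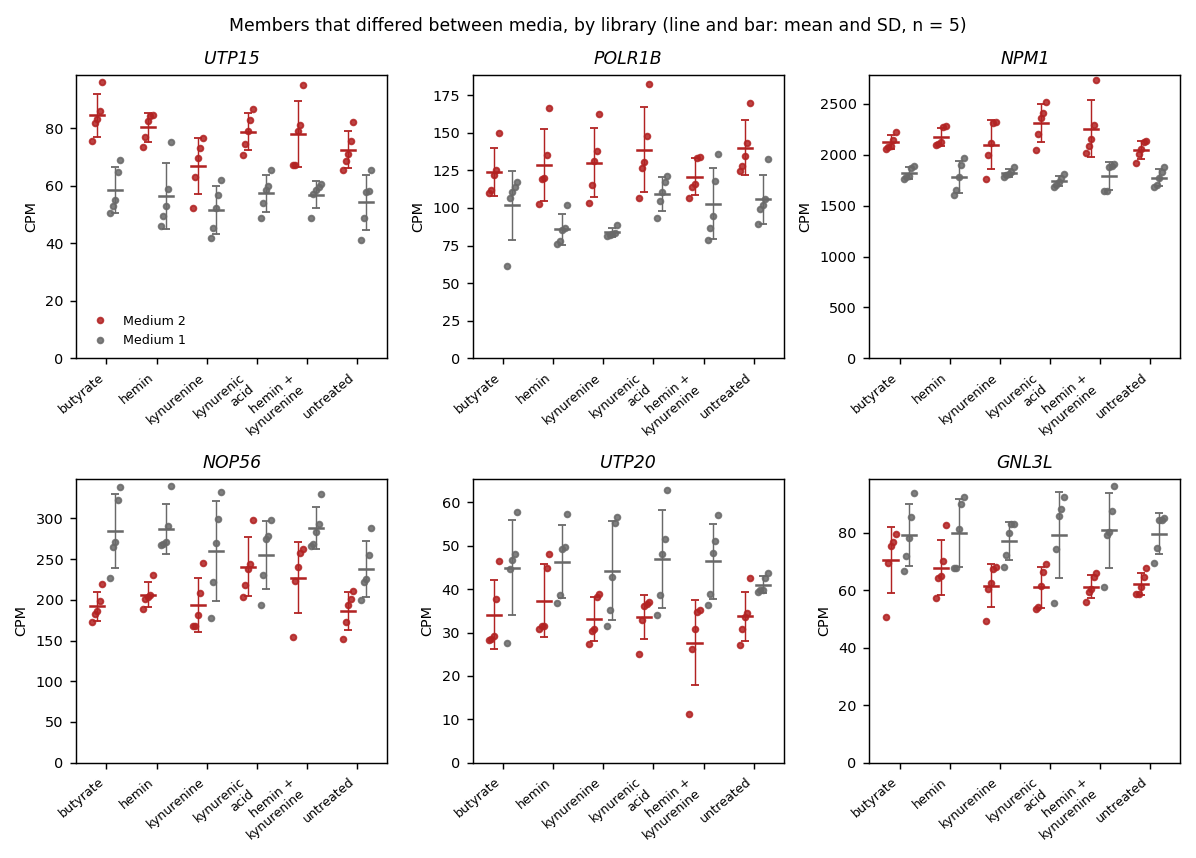
CPM of 6 members in each of 60 libraries, by treatment, with Medium 2 (red) left of Medium 1 (grey); lines and bars give the mean and SD of 5 libraries. By their means UTP15, POLR1B and NPM1 lie higher in Medium 2 in every treatment, and NOP56, UTP20 and GNL3L lie lower in every treatment, with overlap in most.

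Members with and without the promoter motif went both ways. Of the 14 members with CACGTG in a promoter window, 3 were higher in Medium 2 averaged over treatments (FBL, DDX21, BYSL), 3 were lower (UTP20, NOP2, GNL3) and 8 did not pass. Of the 19 with a window and no motif 6 were higher, 7 lower and 6 did not pass. Over all tested genes 22.8% were higher and 23.3% lower in this contrast. Some members are hosts of other RNAs. GENCODE release 29 places 26 snoRNA genes inside 8 members, with 6 in GNL3, 5 in NOP56, 4 in NOP58, 3 each in NCL and WDR43, 2 each in DKC1 and TSR1 and 1 in POLR1C. Of these 8 hosts, 4 were lower in Medium 2 on average (NOP56, NOP58, TSR1, GNL3), DKC1 was higher and 3 did not pass. Of the 32 other members 8 were higher, 7 lower and 17 did not pass. The calls of the hosts NOP58 and GNL3 were lost in some fits that left out a library. Whether motif or hosting bears on direction was not tested, and these sets are small. The same annotation has a gene on the same strand overlapping HEATR1, RRP12, NOP2, WDR74 and RRS1 and a gene on the opposite strand overlapping 17 members, UTP15 among them. The sources used here do not give whether reads were counted by strand, and the values of those members are uncertain to that extent.

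Without any compound, the media differed in 4 members. In untreated spheroids 3 members were higher and 1 lower in Medium 2, against 6.4% of all tested genes (2.69% higher, 3.71% lower). DDX21 had 925, 937, 975, 986 and 1001 CPM in the 5 libraries of untreated Medium 2, against 778, 803, 808, 825 and 840 CPM in untreated Medium 1, without overlap. Its log2 fold change was 0.25 (SE 0.07, adjusted p = 0.0197). UTP15 had 65.6, 68.5, 70.9, 75.7 and 82.3 CPM in Medium 2, against 41, 48.7, 57.9, 58.2 and 65.6 CPM in Medium 1, where the highest Medium 1 value all but meets the lowest of Medium 2. Its log2 fold change was 0.42 (SE 0.13, adjusted p = 0.0359). DKC1 had 463, 470, 486, 541 and 541 CPM in Medium 2, against 368, 370, 382, 389 and 391 CPM in Medium 1. These groups lay apart, and the log2 fold change was 0.40 (SE 0.13, adjusted p = 0.0446). HEATR1 was the lowered member, at 54.8, 55.9, 56, 57.9 and 58.6 CPM in Medium 2, against 60.3, 76.2, 77.0, 78.0 and 83.2 CPM in Medium 1, again apart, with -0.40 (SE 0.13, adjusted p = 0.0456). With 5 libraries a group these calls were fragile. DKC1 was lost whichever of the 10 libraries was left out (adjusted p from 0.0549 to 0.102) and HEATR1 in 9 of 10 cases (all but well E1 of Medium 1, 0.0789 to 0.124). UTP15 was lost without well B1 or C1 of Medium 1 or H4 or B5 of Medium 2 (0.0662 to 0.137), and DDX21 without well D1 of Medium 1 (0.0503). None of the 4 passed with no filter on low counts, nor with plate column as a factor, where the median standard error of the members was 0.44 in place of 0.14.

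**Figure D3:**
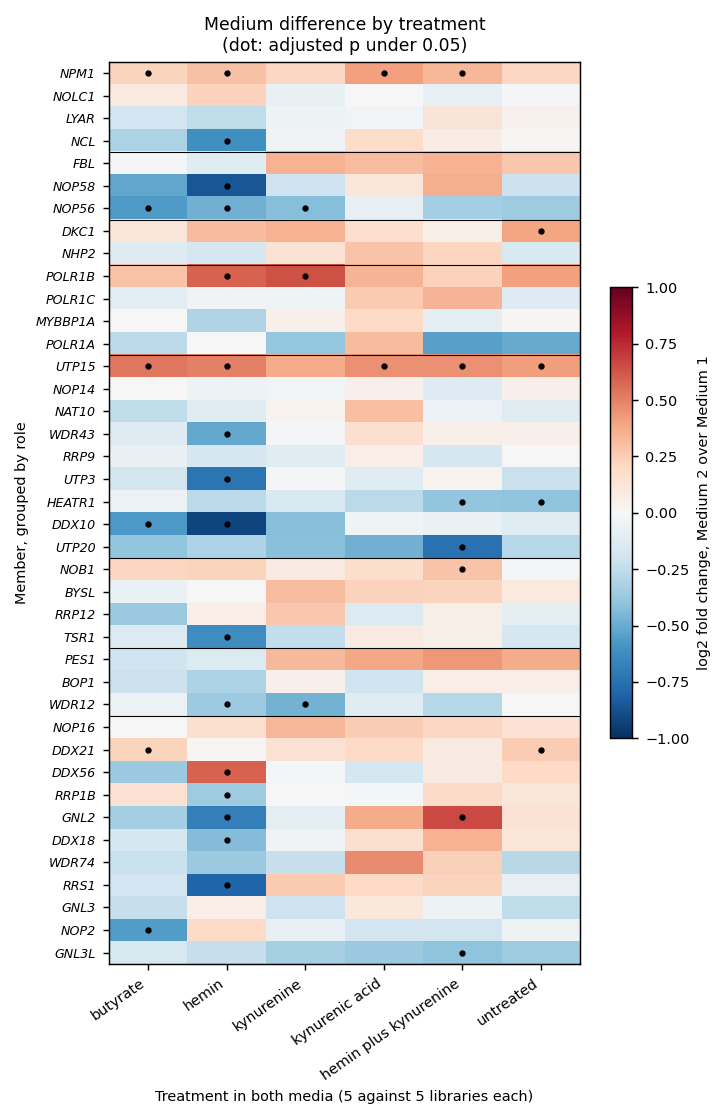
Log2 fold change of Medium 2 over Medium 1 for each member (rows, grouped by role) in each treatment (columns, 5 against 5 libraries); red is higher and blue lower in Medium 2, and a dot marks an adjusted p under 0.05. The hemin column has the most dots, 16, of which 12 are blue.

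More members passed between the media in hemin-treated spheroids than in any other treatment. There 4 members were higher and 12 lower in Medium 2, against 23.9% of all tested genes in either direction (12.6% higher, 11.3% lower). The median log2 fold change over members was -0.17, against 0.00 over all tested genes. In the other treatments this median was -0.15 with butyrate, -0.02 with kynurenine, 0.16 with kynurenic acid, 0.07 with hemin plus kynurenine and 0.00 in untreated spheroids, with 11, 17, 27, 26 and 20 of 40 members above 0 in that order. DDX10 had 64.5, 91.1, 99.6, 105 and 110 CPM in hemin-treated Medium 2, against 143, 160, 162, 188 and 235 CPM in hemin-treated Medium 1. The groups did not overlap, and the log2 fold change was -0.92 (SE 0.18, adjusted p = 0.000170). UTP3 followed with -0.73 (SE 0.16, adjusted p = 0.000558), TSR1 with -0.62 (SE 0.14, adjusted p = 0.000980) and NOP58 with -0.85 (SE 0.21, adjusted p = 0.00181). NOP58 had 105, 110, 127, 147 and 162 CPM in Medium 2, just below the 166, 184, 196, 269 and 358 CPM of Medium 1. The other 8 lowered members were RRS1 (-0.80), GNL2 (-0.68), NCL (-0.61), WDR43 (-0.51), NOP56 (-0.48), DDX18 (-0.44), WDR12 (-0.37) and RRP1B (-0.36). Higher in Medium 2 were POLR1B (0.59, SE 0.15, adjusted p = 0.00233), the helicase DDX56 (0.59), UTP15 (0.50) and NPM1 (0.29). Among the lowered members, the calls of 5 depended on single libraries. These were WDR43 without well D2 of Medium 1 (adjusted p = 0.0576), DDX18 without C2 of Medium 1 (0.0694), GNL2 without C2 or D2 of Medium 1 or B6 or E6 of Medium 2 (0.0541 to 0.129), WDR12 without D2 or E2 of Medium 1 or B6 or E6 of Medium 2 (0.0571 to 0.0838) and RRP1B without D2 or E2 of Medium 1 or E6 of Medium 2 (0.0659 to 0.106). Library totals ran from 1346135 to 1824740 in the hemin group of Medium 2 and from 1563678 to 2545112 in that of Medium 1, and RNAs retained in the nucleus summed to between 614 and 1060 CPM in the Medium 2 group and between 1723 and 2612 CPM in the Medium 1 group. Their part in the result was not tested.

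In the other 4 treatments fewer members passed. With butyrate, 3 were higher and 3 lower in Medium 2, against 9.9% of all tested genes (4.52% higher, 5.37% lower). They were UTP15 (0.53), DDX21 (0.23) and NPM1 (0.22) on the high side and DDX10 (-0.57), NOP56 (-0.57) and NOP2 (-0.56) on the low side. With kynurenine, POLR1B was higher (0.64) and WDR12 (-0.47) and NOP56 (-0.42) were lower, against 8.01% of all tested genes (3.73% higher, 4.28% lower). With kynurenic acid, NPM1 (0.41) and UTP15 (0.46) were higher and 0 members lower by edgeR's test, against 8.56% of all tested genes (4.32% higher, 4.24% lower). In either direction 12 members had an unadjusted p under 0.05, against 23.3% of all tested genes, and DESeq2 called 4, against 9.31%. With hemin plus kynurenine, GNL2 (0.66), UTP15 (0.46), NPM1 (0.33) and NOB1 (0.29) were higher and UTP20 (-0.74), GNL3L (-0.40) and HEATR1 (-0.40) were lower, against 16.3% of all tested genes (8.04% higher, 8.31% lower). UTP15 passed in 5 of 6 treatments and NPM1 in 4. With butyrate 0 members passed with plate column as a factor, and the estimate for NOP2 then changed sign to 0.27. Leaving out single libraries ended some of these calls. With butyrate these were NPM1 in 9 of 10 fits (adjusted p from 0.0527 to 0.0813), DDX10 without B2 or G1 of Medium 1 or D5, F5 or H5 of Medium 2 (0.0569 to 0.143) and DDX21 without F1 of Medium 1 or D5 or G5 of Medium 2 (0.0673 to 0.0917). With kynurenine they were NOP56 in 7 of 10 fits (0.0648 to 0.233) and WDR12 without A3 or D3 of Medium 1 (0.0525 to 0.0824), and with kynurenic acid UTP15 without G3 or H3 of Medium 1 (0.0506 to 0.0639). With hemin plus kynurenine they were UTP20 without H7 of Medium 2 (0.0527), HEATR1 without D4 of Medium 1 or A8 of Medium 2 (0.0515 to 0.0700), GNL3L without D4 or F4 of Medium 1 or A8 of Medium 2 (0.0524 to 0.0722), GNL2 in 6 of 10 fits (0.0566 to 0.0977) and NOB1 in 7 of 10 (0.0579 to 0.227).

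Libraries of the same group differed from each other in a set of members that went up and down together. The deviations of log2 CPM from the group mean were correlated between members over the 60 libraries, as a description of libraries that share a plate and differ in depth. The median r over the 780 member pairs was 0.12, and 8.21% of pairs had r over 0.5, against 1.84% of all pairs of tested genes. The closest pair was NOP58 and GNL2 with r = 0.91, followed by NCL and WDR43 with 0.89 and NCL and NOP58 with 0.88. With a limit of 0.5, chosen after the values were seen, 12 members followed NCL. They were WDR43, NOP58, DDX10, GNL2, TSR1, DDX18, RRP1B, NAT10, BOP1, RRS1, NOP56 and UTP3, in falling order of r. Some of the remaining members went against this set, and the lowest r with a member of it was -0.58, between POLR1B and DDX18. UTP15 and NPM1, which were higher in Medium 2, had r of -0.08 and 0.03 with NCL.

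**Figure D4:**
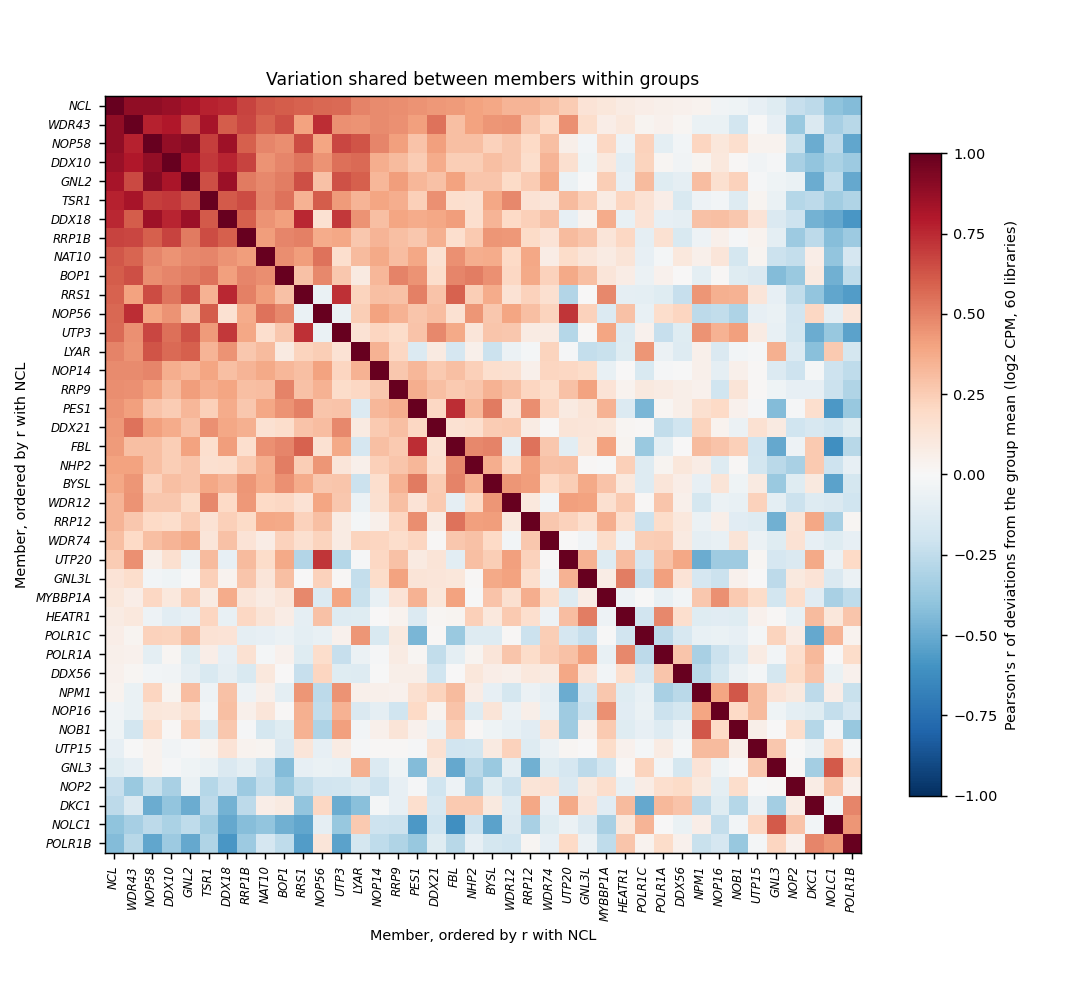
Pearson's r between members, from deviations of log2 CPM from the group mean over 60 libraries, ordered by r with NCL. The first members at the upper left, from NCL through UTP3, have r over 0.5 with NCL and reach 0.91 among themselves, and POLR1B and NOLC1 at the end are negatively correlated with it.

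The swings ran in both directions and were largest in some libraries. The log2 deviation of NCL from its group mean was highest at 0.82, in the kynurenic acid library of Medium 2 in well G7. Next highest was 0.52, in the hemin plus kynurenine library of Medium 1 in F4. The lowest was -0.47, in the kynurenine library of Medium 1 in H2. NCL reached 2089 CPM in the kynurenic acid library of Medium 2 in well G7, against 924 to 1064 CPM in the other 4 of its group. Within the hemin group of Medium 1 it reached 1851 CPM in well C2 and 1758 CPM in D2, and it was 1680 CPM in the butyrate library of Medium 1 in B2. GNL2, a GTPase that remodels the pre-large subunit, had 217 CPM in G7, where the other 4 libraries had 70.6 to 99.0 CPM, and 202 CPM in C2, where the others had 87.7 to 147 CPM. Depth and nuclear RNA moved with these values. Deviations of NCL, NOP58 and GNL2 had r of 0.36, 0.42 and 0.41 with those of the log2 library total. Their r with deviations of the log2 summed level of RNAs retained in the nucleus (NEAT1, MALAT1, KCNQ1OT1 and MEG3) was 0.75, 0.68 and 0.54. This sum was 1837 CPM in G7, where the other 4 libraries had at most 860 CPM, and 2154 and 2612 CPM in C2 and D2, where the other 3 hemin libraries of Medium 1 had 1723 to 1984 CPM. In B2 it was 1914 CPM, within the 1358 to 2183 CPM of the other butyrate libraries of Medium 1. The part of depth and of nuclear RNA in the swings was not tested.

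**Figure D5:**
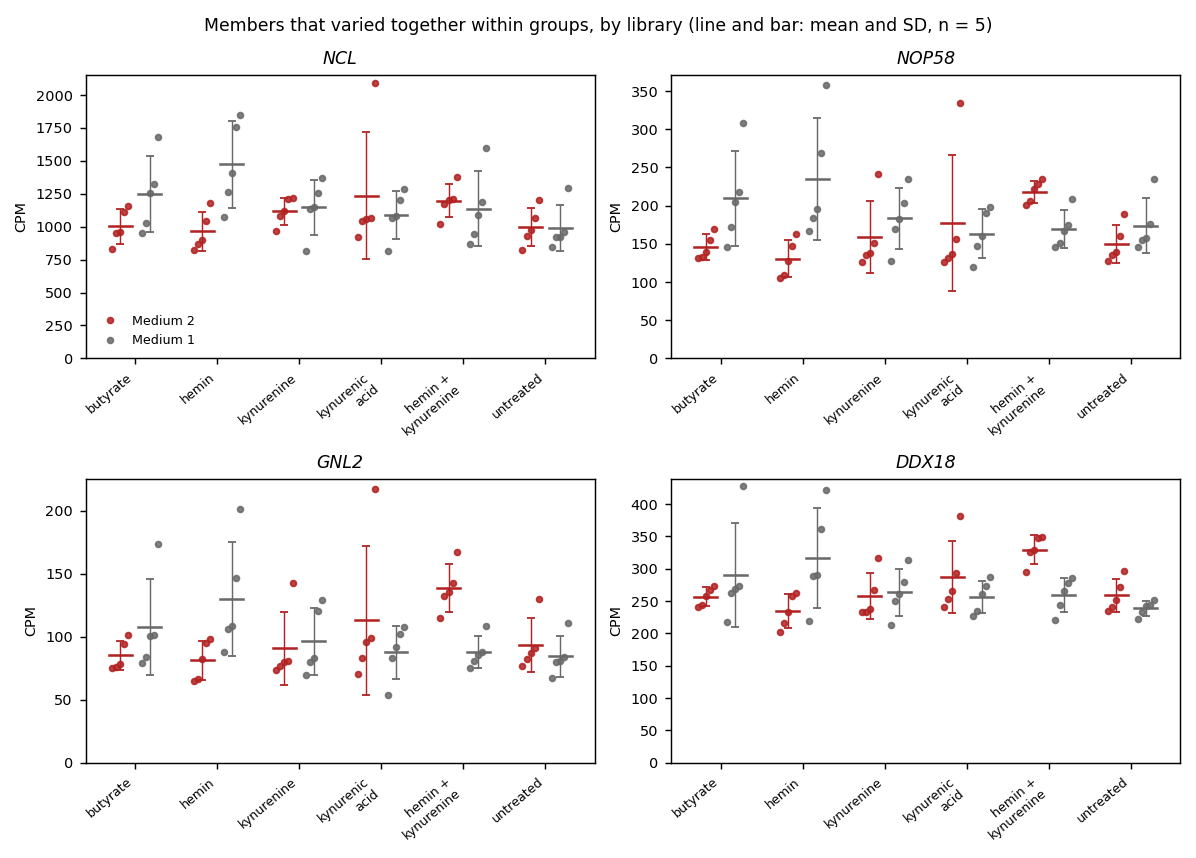
CPM of NCL, NOP58, GNL2 and DDX18 in each library, by treatment, with Medium 2 (red) left of Medium 1 (grey); lines and bars give the mean and SD of 5 libraries. Single libraries stand far above their group, such as the kynurenic acid library of Medium 2 at 2089 CPM of NCL, and the hemin groups are widely spread in Medium 1.

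Against untreated spheroids, no member passed the threshold with any compound. In the 10 contrasts of a compound with untreated spheroids of the same medium, 0 of 40 members passed edgeR's test. Of all tested genes, 0.00885% passed with butyrate, 0.133% with hemin, 0.0354% with kynurenine, 0% with kynurenic acid and 0.0266% with hemin plus kynurenine in Medium 1. The shares in Medium 2 were 0%, 0%, 0.0177%, 0.0177% and 0.558% in the same order. DESeq2 called 5 members with hemin in Medium 1, where it called 6.53% of all genes it gave an adjusted p, and 0 in the other 9 contrasts. An unadjusted p under 0.05 was met in Medium 1 by 9 members with butyrate, 20 with hemin, 1 with kynurenine, 1 with kynurenic acid and 4 with hemin plus kynurenine, against 8.53%, 21.5%, 3.79%, 3.26% and 4.96% of all tested genes. In Medium 2 these counts were 3, 3, 2, 9 and 6 in the same order, against 3.55%, 7.54%, 6.97%, 7.97% and 13.6% of all tested genes. The contrasts of a medium share their 5 untreated libraries.

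Hemin in Medium 1 came closest to the threshold. NCL had 1077, 1267, 1410, 1758 and 1851 CPM with hemin, against 848, 923, 924, 963 and 1292 CPM in untreated spheroids. The highest untreated library, in well B1, overlapped the lower hemin libraries, and the log2 fold change of 0.57 (SE 0.17) had an adjusted p of 0.0628 by edgeR. WDR43, of the early small subunit processome, averaged 302 CPM with hemin and 212 CPM without (0.51, SE 0.15, adjusted p = 0.0635 by edgeR). Over the 40 members the median log2 fold change was 0.20, against -0.02 over all tested genes, and 31 of 40 were above 0. The count of members past the threshold depended on single libraries. It was 9 without the hemin library in well G2 and 2 without the untreated library in B1, and 6 without both libraries that stood apart. The shares of all tested genes that passed in these fits are not given here, so the counts cannot be set against them.

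The smallest p-values with the other compounds belonged to different members and did not pass. With butyrate they were those of NOP16 (133 against 108 CPM, 0.30, adjusted p = 0.479 by edgeR) and LYAR (158 against 129 CPM, 0.29) in Medium 1, and of DDX56 (24.3 against 33.6 CPM, -0.46) and NOP2 (35.9 against 48.5 CPM, -0.43) in Medium 2. Kynurenine had POLR1B (83.7 against 106 CPM, -0.34) and POLR1C (39 against 46.2 CPM, -0.24) in Medium 1, and WDR12 (48.9 against 60.4 CPM, -0.30) and NOLC1 (395 against 457 CPM, -0.21) in Medium 2. Kynurenic acid had DKC1 (494 against 380 CPM, 0.38) and WDR12 (69.5 against 60.3 CPM, 0.20) in Medium 1, and GNL3 (323 against 265 CPM, 0.29) and NHP2 (114 against 87.5 CPM, 0.39) in Medium 2. Hemin in Medium 2 had NOP2 (62.5 against 48.5 CPM, 0.36) and DDX10 (94.1 against 124 CPM, -0.40). Hemin plus kynurenine had DKC1 (487 against 380 CPM, 0.36) and WDR12 (76.4 against 60.3 CPM, 0.34) in Medium 1, and NOP58 (218 against 150 CPM, 0.54, adjusted p = 0.198) and WDR74 (24.2 against 16.6 CPM, 0.52) in Medium 2.

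Averaging over the media, or asking whether a response differed between them, also gave 0 members past edgeR's threshold for every compound. Averaged over media the shares of all tested genes were 0% for butyrate, 0.0177% for hemin, 0.062% for kynurenine, 0% for kynurenic acid and 0.0885% for hemin plus kynurenine. The counts of members with an unadjusted p under 0.05 were 5, 11, 3, 3 and 5 in that order, against 7.24%, 15.4%, 7.09%, 6.95% and 10.2% of all tested genes. The smallest averaged p-values were those of NOP16 (0.23) and NAT10 (0.22) with butyrate, NOP14 (0.22) and NAT10 (0.29) with hemin, NOLC1 (-0.18) and POLR1B (-0.22) with kynurenine, DKC1 (0.26) and NOP16 (0.20) with kynurenic acid, and NOP56 (0.28) and DDX18 (0.23) with hemin plus kynurenine. For the difference between media the shares were 0%, 0%, 0.0177%, 0% and 0.0266%, and 2, 14, 1, 5 and 4 members had an unadjusted p under 0.05, against 4.27%, 13.3%, 3.69%, 4.66% and 8.67% of all tested genes. The hemin difference was led by DDX10 (-0.79, adjusted p = 0.225) and DDX18 (-0.56, adjusted p = 0.232), both with a more negative estimate in Medium 2. For the other compounds it was led by DDX56 (-0.58) and NOP2 (-0.51) with butyrate, WDR12 (-0.47) and NHP2 (0.30) with kynurenine, WDR74 (0.76) and GNL3 (0.35) with kynurenic acid, and POLR1C (0.46) and NOB1 (0.30) with hemin plus kynurenine. DESeq2 called 0 members in each of these 10 contrasts as well, although for the difference with hemin plus kynurenine it gave an adjusted p to 20 of the 40 only.

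Kynurenic acid is made from kynurenine by transamination, after which the side chain closes into a second ring. At the matched concentration of 1 µM the pair was compared in each medium, and 0 members passed edgeR's test or DESeq2's, against 0.0354% of all tested genes in Medium 1 and 0.00885% in Medium 2. An unadjusted p under 0.05 was met by 1 member in Medium 1 and 7 in Medium 2, against 3.74% and 5.94% of all tested genes. The smallest p in Medium 2 was that of GNL3, at 323 CPM with kynurenic acid and 258 CPM with kynurenine (log2 difference 0.33, 95% interval 0.13 to 0.52, adjusted p = 0.504). POLR1C followed with 51.9 and 37.9 CPM (0.45, 95% interval 0.16 to 0.74). In Medium 1 it was POLR1B with 109 CPM for kynurenic acid and 83.7 CPM for kynurenine (0.39, 95% interval 0.09 to 0.68), and NAT10 with 96.2 and 113 CPM (-0.23, 95% interval -0.50 to 0.04). These intervals include differences of a size seen between the media.

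A last comparison, added after the values had been seen, set hemin plus kynurenine against hemin alone. In Medium 2, GNL2 had 115, 132, 136, 143 and 168 CPM with both compounds, against 64.5, 66.7, 82.2, 94.9 and 97.9 CPM with hemin, and NOP58 had 201, 206, 222, 229 and 234 CPM, against 105, 110, 127, 147 and 162 CPM. DDX18 had 294, 325, 329, 348 and 350 CPM, against 202, 216, 232, 259 and 262 CPM. None of these 3 passed (log2 fold changes 0.77, 0.74 and 0.49, adjusted p = 0.0713, 0.0616 and 0.0574 by edgeR). In Medium 1 the same 3 leaned the other way, with GNL2 averaging 87.6 and 130 CPM with both compounds and with hemin (-0.58, adjusted p = 0.353). For each medium 0 members passed, against 0.434% of all tested genes in Medium 2 and 0.0177% in Medium 1, while 13 members in each had an unadjusted p under 0.05, against 16.4% of all tested genes in Medium 2 and 12.2% in Medium 1. DESeq2 called 3 members in Medium 2, against 3.06% of the genes it gave an adjusted p, and 0 in Medium 1. With plate column as a factor 6 members passed in Medium 2, 4 higher and 2 lower, as did 759 of all 11298 genes. The difference between the media did pass for 8 members, all more positive in Medium 2, against 5.17% of all tested genes (3.12% more positive, 2.04% more negative). GNL2 had 1.34 (SE 0.32), NOP58 1.21 (SE 0.29) and DDX18 0.78 (SE 0.19), each with an adjusted p of 0.0121, and RRS1, UTP3, TSR1, DDX10 and RRP1B had 1.02, 0.76, 0.68, 0.85 and 0.55. DESeq2 also called 8, against 9.16% of the genes it gave an adjusted p. All 8 were among the 12 members with r over 0.5 with NCL within groups. That limit was chosen after the values were seen, and r was taken over libraries that include those of this contrast. All 8 calls were lost without the hemin library of Medium 1 in well C2, and the count was 12 without the one in G2. The count fell to 3 without D2 of hemin, or B4, C4 or E4 of hemin plus kynurenine, in Medium 1. RRP1B was lost in 13 of 20 fits that each left out a library, UTP3 in 10, and DDX10, TSR1 and RRS1 in 8 each. GNL2, NOP58 and DDX18 were lost only without C2. The shares of all tested genes in these fits are not given here. All 8 were also lost with plate column as a factor (adjusted p from 0.181 to 0.777), with estimates between 0.36 and 2.00. Depth differed between the Medium 2 groups without overlap, at 2151092 to 2981625 counts with both compounds and 1346135 to 1824740 with hemin, and with all libraries thinned to equal depth DDX10 was no longer called (adjusted p = 0.0530).

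Other genes of the pathway also split in direction between the media. Of 102 tested ribosome biogenesis genes outside the 40, 15 were higher and 22 lower in Medium 2 averaged over treatments, with a median log2 fold change of -0.04. Over all tested genes 22.8% were higher and 23.3% lower in this contrast, so a split in direction is not particular to the pathway. The large subunit ATPase MDN1 was at 56.6 and 100.3 CPM in Medium 2 and Medium 1 (-0.82, SE 0.07, adjusted p = 2.01e-14), and the helicases DDX55 (-0.62) and DHX37 (-0.50) were lower too. AEN (0.43), EIF6 (0.30), which keeps the large subunit from joining early, and NSA2 (0.21) were higher. Of 12 tested other genes of the RNA polymerase I machinery, 4 were higher, among them TAF1A (0.46), POLR1E (0.31) and the initiation factor RRN3 (0.30), and 3 lower, TAF1C (-0.58), TAF1B (-0.23) and CD3EAP (-0.21). Cytosolic ribosomal proteins, the cargo of the pathway, showed another pattern, with 75 of 79 higher, 0 lower (0 also at an unadjusted p under 0.05) and a median of 0.29.

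Of 9 growth regulators 5 passed between the media, 4 higher and 1 lower in Medium 2, a share near that of all genes. DDIT4, an inhibitor of mTORC1, averaged 307 and 53.3 CPM in Medium 2 and Medium 1 (2.53, SE 0.10), and SESN2, a leucine sensor that also restrains mTORC1, 45.4 and 26.9 CPM (0.77, SE 0.07). MYC was at 69.7 and 55.6 CPM (0.34, SE 0.12, adjusted p = 0.0222) and MAX at 183 and 138 CPM (0.41, SE 0.07). MTOR was lower (-0.25, SE 0.06), while MNT (0.12), MXD4 (-0.07), RPS6KB1 (0.04) and EIF4EBP1 (0.04) did not pass. All 3 tested RNAs that stay in the nucleus were lower in Medium 2, NEAT1 with 8.11 and 46.4 CPM (-2.53), MALAT1 with 994 and 1729 CPM (-0.81) and KCNQ1OT1 (-0.67). The part of these RNAs in the member results was not tested.

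Across all 12 groups together, 22 of 40 members differed by edgeR's F-test, against 33.1% of all tested genes. The 18 that did not were NCL, NOLC1, LYAR, NHP2, POLR1A, POLR1C, MYBBP1A, NOP14, RRP9, WDR43, NAT10, RRP12, BYSL, NOB1, BOP1, PES1, WDR74 and RRP1B. A test of whether the medium difference varied among treatments, added after the values had been seen, called 0 members, against 0.487% of all tested genes, with 15 members at an unadjusted p under 0.05, against 16.1% of all tested genes, and 4 called by DESeq2, against 3.62% of the genes it gave an adjusted p. Without well G2 of hemin in Medium 1 it called 5, and without F1 of butyrate in Medium 1 it called 3. For these fits too the shares of all tested genes are not given.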

How the data were processed

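Per the labels' protocols, column-purified RNA (48 ng) was made into QuantSeq 3' FWD libraries that carry unique molecular identifiers, with 18 cycles of PCR. The authors deposited estimated counts per gene for 60 libraries. The submitters' processing notes name Salmon 1.5.2, STAR, cutadapt 3.4, UMI-tools 1.1.2 and FastQC 0.11.9 and the GRCh38 build, without settings. Of the deposited expected counts 21.4% of values above 0 were not whole, and all were rounded here. Reads that match several genes may have been shared out.

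Groups came from the titles. Columns carry group and plate well but no replicate number. Chi-square values per degree of freedom between libraries of a group were 2.27 to 21.5 over 120 pairs, so none counted as a duplicate.

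Genes were kept by filterByExpr (minimum count 10, minimum total 15), which held 99.6% of counts, and scaled by TMM. A quasi-likelihood model with 12 group means and 48 residual degrees of freedom was fitted in edgeR 4.0.16 under R 4.3.3 (common dispersion 0.0316) and tested on simulated data. There were 29 contrasts, planned with earlier results of these data known, and 1 test over all groups, with 4 tests added after seeing values. Tests were two-sided F-tests, with adjusted p under 0.05 as the threshold, and 95% intervals came from the same fit. Correlations used log2 CPM with a prior count of 2. Alternatives were RLE scaling, no filter, plate row as a factor, plate column as a factor (added after seeing values), thinning to equal depth, leaving out 2 libraries, fitting the compared groups only, DESeq2 1.42.0, and leaving out each library.

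The members, their roles, the lists and the contrasts were chosen with earlier results of these data known. Named in each medium contrast were up to 12 members a direction (5 elsewhere) past the threshold by p, the 2 with the smallest p where none passed, and up to 3 genes a direction of other lists. Further members are named because every member is accounted for. Sequences and spans are from RefSeq (GRCh38.p14), and overlaps from GENCODE release 29.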

Additional observations from a re-analysis of the deposited data

Results flagged for a closer look

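In 10 members whose library values are shown, 11 of 120 groups of 5 held a library far from the other 4. Chance flags about 1 in 20 for independent checks. These members were picked by their results, NCL, NOP58, GNL2 and DDX18 because they varied together within groups, and the same libraries recur. The count therefore cannot be set against that rate. The kynurenic acid library of Medium 2 in well G7 was high in NCL (2089 CPM), NOP58 (335 CPM, the next being 156 CPM) and GNL2 (217 CPM). The kynurenine library of Medium 2 in F6 was high in NOP58 (242 CPM, the next being 151 CPM) and GNL2 (143 CPM, the next being 80.9 CPM). The butyrate library of Medium 1 in B2 was high in GNL2 (173 CPM) and DDX18 (428 CPM) and low in POLR1B (61.6 CPM, the next being 106 CPM). GNL2 was also high in untreated Medium 2 in G4 (130 CPM, the next being 90.9 CPM), NCL in untreated Medium 1 in B1 (1292 CPM, the next being 963 CPM) and POLR1B, by a narrow margin, in kynurenine-treated Medium 1 in B3 (88.5 CPM, the next being 83.3 CPM).

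The effect of hemin plus kynurenine over hemin alone differed between Medium 2 and Medium 1 in 8 members by edgeR's interaction test. The differences in log2 effect, Medium 2 minus Medium 1, were 1.34 for GNL2, 1.21 for NOP58, 1.02 for RRS1, 0.85 for DDX10, 0.78 for DDX18, 0.76 for UTP3, 0.68 for TSR1 and 0.55 for RRP1B. This contrast was chosen after the data were seen, and 0 of the 8 passed without the hemin library of Medium 1 in C2, or with plate column as a factor. RRP1B, UTP3, DDX10, TSR1 and RRS1 were also lost without other single libraries.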

How the results depend on the processing

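Across 2200 refits of the 66 called values, 1906 kept direction and call, 293 kept direction and lost the call, and 1 reversed. The reversal was NOP2 with butyrate, at 0.27 with plate column as a factor. For 32 of the 66 no refit kept direction and lost the call, but these include the reversed NOP2 value. Where plate column could be fitted, every call was lost or reversed with it. The rest of the 32 lie in contrasts for which it could not be fitted. In the average over treatments 16 of 20 calls were never lost to a left-out library. BYSL, NOP2 and GNL3 were also lost with no filter on low counts, BYSL and NOP2 after thinning, BYSL with RLE scaling and with DESeq2, and BYSL and NOP58 without both libraries that stood apart. Members called between untreated media, 4 in the main fit, numbered 0 with no filter or plate column as a factor, 1 with plate row as a factor, 2 after thinning and 8 with only the compared groups fitted, and 1 to 3 without a replicate. With butyrate, 6 became 0 with plate column, 3 with plate row and 3 to 5 without a replicate. With kynurenine, 3 became 1 with no filter or only the compared groups and 1 to 7 without a replicate. DESeq2 called 6 there, against 9.31% of all tested genes. With kynurenic acid, 2 became 1 with no filter, 4 with DESeq2 and 1 to 3 without a replicate. With hemin plus kynurenine, 7 became 4 with no filter or thinning and 3 to 9 without a replicate. Hemin against untreated in Medium 1, with 0, gave 3 with no filter, 6 without both libraries that stood apart, 2 with the compared groups, 5 with DESeq2 and 0 to 9 without a replicate. Hemin plus kynurenine against untreated in Medium 2, with 0, gave 1 with the compared groups. Hemin plus kynurenine against hemin in Medium 2, with 0, gave 6 with plate column, 3 each with no filter, without both libraries, with the compared groups and with DESeq2, and 0 to 2 without a replicate. Its difference between media, with 8, gave 0 with plate column, 5 with the compared groups and 0 to 12 without a replicate. The test of varying medium differences, with 0, gave 2 with no filter or without both libraries, 4 with DESeq2 and 0 to 5 without a replicate. With plate column as a factor, 0 of all tested genes passed between the media in untreated spheroids and with butyrate. In the difference between media for hemin plus kynurenine against hemin, 1 gene passed. For refits other than plate column and DESeq2, shares of all tested genes are not given. Those counts of members cannot be set against them. The cause of the changes in count was not tested. Plate column was chosen as an alternative after seeing the data, and could not be fitted for contrasts that it cannot be told apart from. No paired analysis was possible because the columns of the table carry plate wells and no replicate numbers. At these depths the rarest members, such as POLR1A, had wide intervals.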
